A study of Homo sapiens with 18 samples.

Results

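The 44 genes described here code for chemokines, cytokines, their receptors, the NF-kB transcription factors and a few inhibitors and targets of NF-kB. They are a fixed list of names with no threshold on a measured value, drawn up with earlier results of these data known. Their 272 transcripts were summed by gene name in a table of 145326 transcripts and 32490 gene names. All 44 names were found. CCL28, a mucosal chemokine, was too low to measure, with at most 2.34 estimated counts in any sample.

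RNA-SEQ was performed on U87mg, an established human glioblastoma line, and on DAOY, an established human line of desmoplastic cerebellar medulloblastoma. Both lines were grown as spheroidal aggregates, embedded in growth-factor-reduced Matrigel in an electrotaxis channel and held there for a day before a direct current electric field (dcEF) of 250 V/m, which lasted 2 h or 8 h, or 0 h in the controls. The 6 groups (U87mg 0 h, 2 h and 8 h, and DAOY 0 h, 2 h and 8 h) held 3 samples each, numbered 0, 1 and 2 in the labels, and each sample pooled 3 channels. Unexposed aggregates of 2 h and 8 h were not part of the comparison, and the effect of the field cannot be told apart from that of longer time in the channel. Each line stands for 1 tumor, and p-values measure only the spread between these 3 samples, since the labels do not say that they came from separate cultures. The authors describe the samples as biological replicates, of which they kept the 3 of best quality in each group. Because RNA was taken from whole aggregates, fewer cells that use a gene and less RNA per cell cannot be told apart.

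Chemokines are small secreted proteins that guide migrating cells through receptors on the cell surface. Those of the CXC family with a glutamate-leucine-arginine (ELR) motif, such as CXCL1, CXCL2, CXCL3 and CXCL8, attract neutrophils and promote vessel growth, whereas CCL2 and CCL7 attract monocytes and CXCL12 acts through CXCR4. IL-1 and TNF activate the NF-kB dimers, which switch on chemokine genes, IL6, ICAM1 and their own inhibitors NFKBIA and TNFAIP3. IL-6, IL-11 and LIF signal through the shared chain IL6ST, IL-6 together with IL6R and LIF together with LIFR. OSMR is a further receptor chain of this family, and the partner chain of IL-11 is not among the 44 genes. Glioma cells in culture are known to secrete IL-6 and CXCL8.

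The sequences below show what the ELR chemokine genes share in front of their start sites. All 6 lie in 1 cluster, between 73740506 and 74099293 on chromosome 4 (GRCh38, GENCODE 29). RefSeq promoter windows of 300 bases (250 before and 50 after the start, build GRCh38.p14) were matched by symbol for 35 of the 44 genes. CXCL16, CCL2, CCL5, ACKR3, LIF, IL15, CSF1, IL13RA2 and RELB had no entry. Each line gives up to 30 bases, 5′ to 3′ on the strand of the gene, and capitals mark the match to the NF-kB consensus on either strand, except in CXCL8, where they mark the letters that it shares with the other 5.
CXCL1 (chr4:73869304-73869333, plus strand): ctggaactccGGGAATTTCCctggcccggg
CXCL2 (chr4:74099254-74099283, minus strand): ctggagctccGGGAATTTCCctggcccggg
CXCL3 (chr4:74038749-74038778, minus strand): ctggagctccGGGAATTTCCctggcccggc
CXCL5 (chr4:73998749-73998778, minus strand): catgagttcaGGGAATTTCCccagcatccc
CXCL6 (chr4:73836578-73836607, plus strand): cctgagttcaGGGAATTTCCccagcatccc
CXCL8 (chr4:73740468-73740496, plus strand): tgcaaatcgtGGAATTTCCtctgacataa
IL6 (chr7:22727117-22727146, plus strand): tatcaaatgtGGGATTTTCCcatgagtctc
NFKBIA (chr14:35404811-35404840, minus strand): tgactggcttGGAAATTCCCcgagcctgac
The same 10 letters, GGGAATTTCC, began between 78 and 91 bases before the RefSeq start in CXCL1, CXCL2, CXCL3, CXCL5 and CXCL6. They stood on either strand in 0.145% of all 35116 promoter windows, and are thus not particular to the ELR genes. Of the other listed genes, NFKB1 held them, and so did NFKBIA on the opposite strand, printed above as the reverse complement. The shorter run GGAATTTCC of CXCL8 was held by 0.461% of the windows, those of CXCL10 and ICAM1 included. The stretches printed for CXCL2, CXCL3, CXCL5, CXCL6 and IL6 lay inside the extent of these genes in GENCODE 29, which gives them earlier starts.

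The NF-kB consensus was present in 15 of the 35 genes with a window (42.9%), against 7.09% of the 27305 genes with one. Beside the genes printed above, it was found in CXCL10, CCL20, IL32, IL4R, NFKB1, NFKB2, TNFAIP3 and BIRC3. The list was drawn up to include NF-kB genes and targets, so a share above that of all genes is no independent result. CXCL1, CXCL2, CXCL3, CXCL5 and CXCL6, neighbours that hold the same letters, are each counted in it. The AP-1 sequence TGANTCA, searched on both strands and overlapping no printed match, was present in 7 of the 35 genes (CXCL8, CXCL14, CCL7, IL11, IL6R, OSMR and IL1A), or 20%, against 9.37% of all genes with a window. A match describes letters in a window, and a window without one says nothing about the factor.

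Estimated counts summed to between 8341976 and 15610886 per sample, and the 44 genes took 0.355% to 1.06% of them. Levels are given below as TPM, the share of a sample's transcripts scaled by their length and by library, which allows comparison between genes, and always in the order of replicates 0, 1 and 2. The astroglial markers GFAP, OLIG2, S100B and AQP4 were low or absent in both lines, whereas VIM, CD44 and TNC were abundant. Of the 12 astroglial and glioma markers, 5 in U87mg and 3 in DAOY stayed under 1 TPM in every sample. Of 9 tested markers of that list, SOX2, OLIG1, ALDH1L1 and PDGFRA were higher in DAOY at 0 h and NES and VIM lower. The granule neuron precursor and medulloblastoma markers summed to 39.5 to 73 TPM in DAOY and 38.1 to 62.8 TPM in U87mg, but single markers went opposite ways, with MYCN, SYP and ZIC2 higher in DAOY and GLI1 and GLI2 lower among 7 tested. Of 10 leukocyte markers analysed, 7 in U87mg and 6 in DAOY stayed under 1 TPM in every sample, PTPRC, CD3E and SPI1 among them. Their summed level was 14.1 to 50 TPM in DAOY and 255 to 616 TPM in U87mg, where CD68 made up most of it, and their part in the results was not tested.

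In some samples many of these genes stood apart from both other samples of the group. In DAOY at 0 h, 16 of the 42 tested genes were at least 2-fold above both other samples in replicate 0, where 1.96% of all tested genes were. The 16 were the 6 ELR chemokines, CXCL10, CCL7, CCL20, IL6, IL1A, IL1B, IL33, CSF2, TNFAIP3 and BIRC3. In U87mg, replicate 1 was at least 2-fold below both others for 7 of 34 tested genes at 0 h (1.16% of all genes), 3 at 2 h (1.07%) and 9 at 8 h (1.58%). CXCL1, CXCL5 and CCL20 were among them at each of the 3 times. In DAOY at 2 h, replicate 1 was at least 2-fold below both others for 12 of the 42 tested genes (2.64% of all genes). In DAOY at 0 h, replicate 2 was so for 8 (3.72%). CXCL1, CXCL3, CXCL5, CXCL6, CXCL10 and CCL7 were among these 8 and among the 16 above. For these genes, a fit without replicate 0 of DAOY at 0 h rests partly on a sample that was itself low. These comparisons within groups were made after the values were seen, and results that turned on replicate 0 of DAOY at 0 h are given with and without it.

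**Figure D1:**
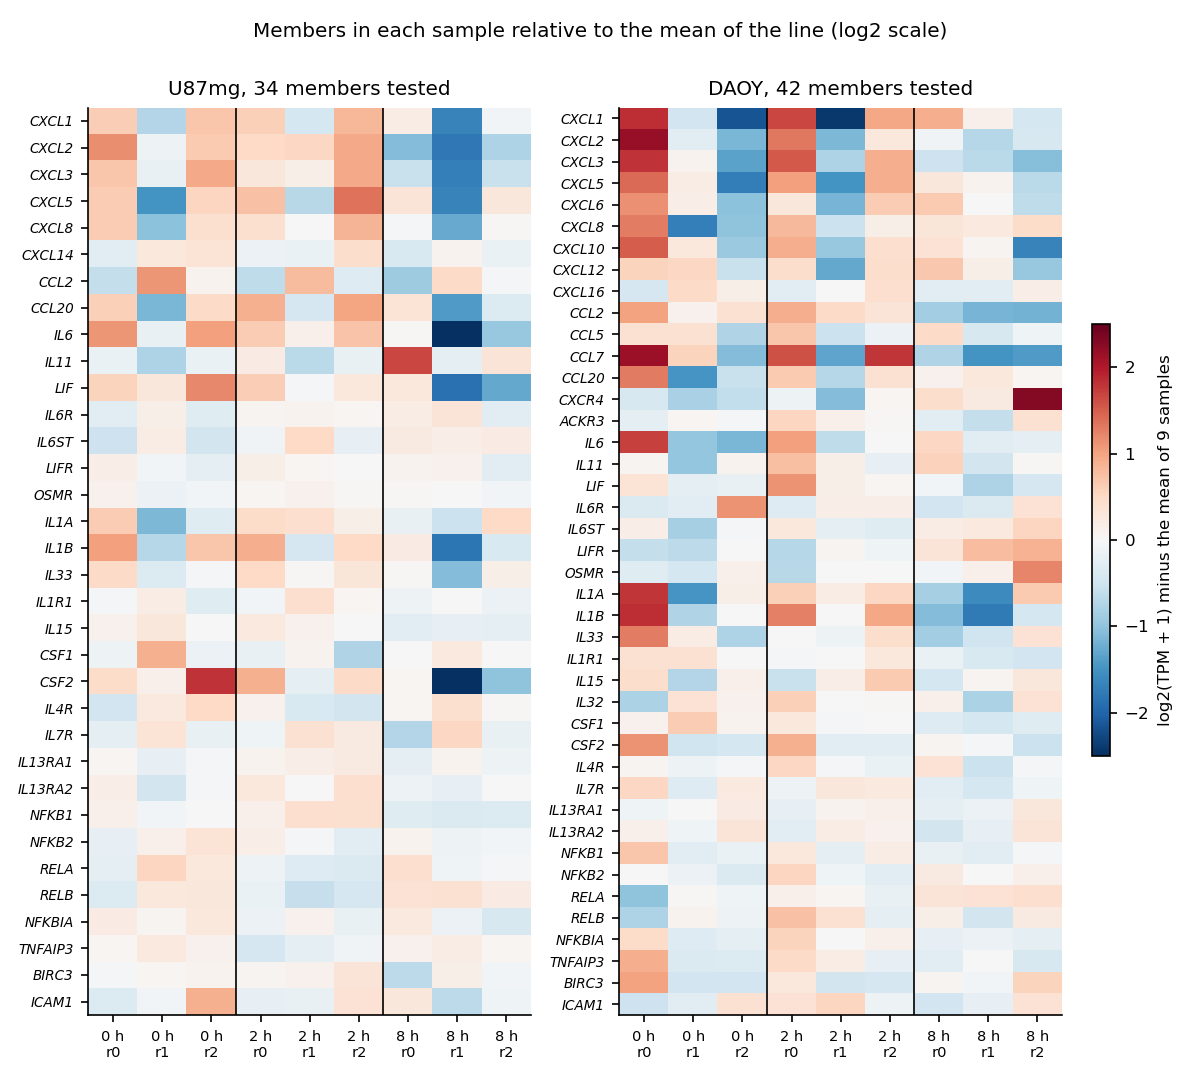
Level of each tested gene (rows) in each of the 9 samples of U87mg (left) and DAOY (right), as log2(TPM + 1) minus the mean of the line's 9 samples, with r0 to r2 marking replicates. Replicate 0 of DAOY at 0 h is red for 16 chemokine, cytokine and NF-kB target genes that exceed both other samples at least 2-fold, and replicate 1 of U87mg at 8 h is blue for 9 genes.

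Without the field, both lines carried a large part of their chemokine and cytokine RNA in a few genes, and not in the same ones. In U87mg at 0 h the highest mean levels were those of CXCL8 (2492 ± 1246 TPM, SD, n = 3), IL1B (2368 ± 1225) and IL6 (463 ± 193), followed by IL6ST (257 ± 73.5). In DAOY at 0 h CCL2 led (2374 ± 789 TPM, SD, n = 3), followed by CXCL8 (675 ± 740), IL6 (408 ± 464) and CXCL1 (386 ± 466). The SDs of CXCL8 and IL1B in U87mg overlapped, and so did those of CXCL8, IL6 and CXCL1 in DAOY, so that these neighbours could not be ordered.

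The comparison of both lines at 0 h asks how the aggregates differ before any field. By edgeR's quasi-likelihood test, at an FDR under 0.05 and a fold of 2 or more in either direction, 29 of 43 tested genes differed (67.4%), where 41.2% of all 16482 tested genes did. Genes that passed both thresholds are said to be called. Of these, 18 were higher in DAOY (23.4% of all genes were) and 11 were lower (17.8% of all genes were). In the fits of single lines, 42 of the 44 genes passed the filter on low counts in DAOY and 34 in U87mg. Genes that pass only through DAOY are nearly bound to be higher there, which adds to the 18. The median log2 fold change was 0.42 over the 43 genes, also with the genes absent from U87mg set to their lower bounds, and 0.05 over all genes. Without replicate 0 of DAOY at 0 h, 29 genes were called as well, but CXCL1, CCL20, BIRC3 and NFKBIA were lost and CXCL5, IL6, IL33 and RELB were gained.

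The ELR chemokines were split between the lines. CXCL1 was higher in DAOY, at 918, 182 and 56.3 TPM against 64, 24.5 and 67.4 in U87mg (log2 fold change 2.85 ± 0.94, edgeR adjusted p = 0.0138), and the lowest DAOY sample lay below the highest sample of U87mg. The CXCL1 call was lost without replicate 0 of DAOY (log2 fold change 1.00, edgeR adjusted p = 0.3), without replicate 1 of U87mg (2.48, 0.0607) and by limma with both pseudocounts (adjusted p of 0.0741 and 0.0776). CXCL2, at 104, 18.2 and 9.61 TPM against 350, 143 and 247, was lower in DAOY in every sample (log2 fold change -2.54 ± 0.71, edgeR adjusted p = 0.00476, and -4.41 without replicate 0 of DAOY). CXCL3 (-1.84 ± 0.64) and CXCL8 (-1.88 ± 0.66, log2 fold change ± SE) were also lower in DAOY, with edgeR adjusted p of 0.019 and 0.0196. Replicate 0 of DAOY reached into the range of U87mg for CXCL3 and CXCL8, and without it their log2 fold changes were -3.16 and -3.53. Both calls were lost in a fit of only the 6 samples compared, without replicate 1 or 2 of DAOY, and without replicate 2 (CXCL3) or 0 (CXCL8) of U87mg, at edgeR adjusted p of 0.0559 to 0.0695 for CXCL3 and 0.0604 to 0.0827 for CXCL8. CXCL5 was at 14.3, 5.45 and 0.714 TPM in DAOY and 36.4, 7.61 and 34.4 in U87mg and did not pass the test (edgeR adjusted p = 0.0673), but was called lower without replicate 0 of DAOY (log2 fold change -3.23, edgeR adjusted p = 0.0114), without replicate 1 of U87mg (0.0323), without replicate 1 of DAOY at 2 h (0.0452), with the replicate number as a block (0.046) and without a filter on low counts. CXCL6 had 0 counts in all 3 U87mg samples and 4.46, 1.78 and 0.218 TPM in DAOY, which was at least 9.36-fold higher in DAOY against a floor of 3 counts per library, or 4.2-fold without replicate 0 of DAOY.

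Some of these genes share a part of their sequence, and that part of their reads is hard to keep apart. The main transcript of CXCL2 shared 20.5% of its 31-base stretches with other genes, mostly CXCL1 and CXCL3. The shares were 16.1% for CXCL1, 9.57% for CXCL3 and 27.9% for CCL5, whose partners were mostly repeats. Their values, and those of ICAM1 (25.4%) and IL6ST (14%), are therefore uncertain to the extent that Kallisto divided shared reads between genes.

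The other CXC and the CC chemokines were mostly on the side of DAOY. CXCL10, which attracts T cells and is induced by interferon, was at 51.9, 21.3 and 8.81 TPM in DAOY and at 0 in all U87mg samples, at least 75.3-fold higher in DAOY against the floor of 3 counts per library, or 40.9-fold without replicate 0 of DAOY. CXCL12, the ligand of CXCR4, was at 26, 25.3 and 11.4 TPM in DAOY and at most 0.383 TPM in U87mg. CXCL16 was at 9.58, 18.9 and 14.8 TPM in DAOY and at most 0.3 in U87mg. All 3 were called higher in DAOY, whereas CXCL14 reached at most 1.18 TPM in either line at 0 h and was not called (edgeR adjusted p = 0.0691), except as lower in DAOY without replicate 1 of DAOY (0.0207) or replicate 0 of U87mg (0.044).

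CCL2 showed one of the widest gaps. It was at 3260, 1747 and 2115 TPM in DAOY and at 14.2, 48.7 and 23.5 TPM in U87mg, a log2 fold change of 6.21 ± 0.47 (edgeR adjusted p = 5.78e-09). CCL7, another monocyte chemokine, was at 63.7, 20.4 and 5.94 TPM in DAOY against estimated counts of 0, 1 and 3 in U87mg, too few for a fold. CCL5 (4.55 ± 0.65) and CCL20 (2.43 ± 0.68, log2 fold change ± SE), which attract T cells and CCR6-bearing cells, were called higher in DAOY as well (edgeR adjusted p of 1.10e-05 and 0.00475). The call of CCL20 was lost without replicate 0 of DAOY (log2 fold change 1.15, edgeR adjusted p = 0.0975), and CCL5 had a log2 fold change of 5.45 without replicate 2 of U87mg. CCL5 lay between 3.13 and 8.05 TPM in DAOY and between 0 and 0.489 TPM in U87mg. With at most 5.4 estimated counts in U87mg, the size of its fold is uncertain.

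Both chemokine receptors of the list were called higher in DAOY. CXCR4 was at 20.4, 15 and 17.4 TPM in DAOY against counts of 1, 0 and 1 in U87mg. ACKR3, a scavenging receptor that also binds CXCL12, was at 1.83, 2.4 and 2.24 TPM in DAOY and 0.76, 0.229 and 0.871 in U87mg (log2 fold change 2.45 ± 0.50, edgeR adjusted p = 3.87e-04), and only limma with a pseudocount of 1 put it under the fold threshold (0.98). DAOY thus carried RNA of CXCL12 and of both its receptors, and U87mg had at most 0.871 TPM of any of them at 0 h.

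In the IL-6 family the direction was the opposite one. LIF, at 20.3, 13.2 and 13.8 TPM in DAOY against 136, 113 and 213 in U87mg, was lower in DAOY (log2 fold change -3.23 ± 0.48, edgeR adjusted p = 1.51e-05). Of the receptor chains, IL6R (-1.46 ± 0.40), LIFR (-1.49 ± 0.22) and OSMR (-1.57 ± 0.26, log2 fold change ± SE) were lower in DAOY (edgeR adjusted p of 0.00399, 1.68e-05 and 5.55e-05), and no sample of LIFR or OSMR overlapped between the lines. The value of IL6R was -2.17 without replicate 2 of DAOY. IL6 was at 944, 148 and 131 TPM in DAOY and 589, 241 and 560 in U87mg and was not called (log2 fold change -0.19 ± 0.70). Without replicate 1 or replicate 2 of DAOY its sign turned (0.20 and 0.22), and without replicate 0 it was lower in DAOY (-1.86, edgeR adjusted p = 0.0164). IL11 (log2 fold change -0.52 ± 0.44) and the shared chain IL6ST (-0.19 ± 0.20) were not called either.

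IL1B was the gene furthest in the other direction from CCL2. It was at 21.9, 2.79 and 5.41 TPM in DAOY and at 3402, 1016 and 2686 TPM in U87mg (log2 fold change -7.92 ± 0.88, edgeR adjusted p = 5.55e-07, and -9.37 without replicate 0 of DAOY), although IL1A, coding for the other IL-1 agonist, was at 95.8, 9.03 and 29.7 and 56.4, 16.1 and 28.9 TPM and did not pass the test (log2 fold change 0.42, edgeR adjusted p = 0.614), its sign turning without replicate 0 of DAOY (edgeR adjusted p = 0.179). IL1R1, the signalling receptor for both, was at 114, 114 and 87.6 TPM in DAOY and 61.2, 70.4 and 50.2 in U87mg and passed the FDR but not the fold threshold (log2 fold change 0.85 ± 0.14). IL33, which was low in both lines, was called lower in DAOY only without replicate 0 of DAOY (log2 fold change -2.68, edgeR adjusted p = 0.00253).

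Among the other cytokines and receptors, IL32 (5.93 ± 0.45), IL4R (3.55 ± 0.28) and IL7R (2.1 ± 0.27, log2 fold change ± SE) were higher in DAOY, with edgeR adjusted p of 5.45e-09, 1.02e-08 and 3.07e-06. The size for IL4R is uncertain, since its log2 fold change ranged from 1.54 to 5.45 over the alternatives. Its mean was 12 TPM in DAOY and 3.64 TPM in U87mg, where it had 11 to 25 counts. The myeloid growth factor gene CSF2 (-2.02 ± 0.67), the IL-13 receptor gene IL13RA1 (-1.56 ± 0.15) and IL15 (-1.0 ± 0.24) were lower (edgeR adjusted p of 0.0144, 1.27e-07 and 0.0016). Without replicate 2 of U87mg, IL32 was at 7.26 and CSF2 at -1.34 on that scale, and the call of CSF2 was lost there (edgeR adjusted p = 0.111) and without replicate 1 or 2 of DAOY (0.0599 and 0.057), while its value without replicate 0 of DAOY was -2.93. IL15 lay at the fold threshold and fell short of it in 9 alternatives, with a log2 fold change of -0.43 and -0.48 by limma. CSF1 and IL13RA2, a decoy receptor for IL-13 that is known from glioblastoma, were not called, and IL13RA2 lay between 193 and 299 TPM in all 6 samples.

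The NF-kB subunits themselves differed little. NFKB1 (0.86 ± 0.17), RELA (-0.59 ± 0.22) and RELB (0.79 ± 0.28, log2 fold change ± SE) passed the FDR but not the fold threshold, and NFKB2 (-0.21 ± 0.23) passed neither. RELB was called without replicate 0 of DAOY (1.03). By contrast all 4 inhibitors and targets were higher in DAOY. TNFAIP3, coding for the deubiquitinase A20 that restrains NF-kB, was at 129, 52.9 and 54 TPM in DAOY and 11.9, 13.8 and 12.5 in U87mg (log2 fold change 2.74 ± 0.28, edgeR adjusted p = 2.10e-07). ICAM1 (2.72 ± 0.35), NFKBIA (1.31 ± 0.24) and BIRC3 (1.23 ± 0.36, log2 fold change ± SE), coding for an adhesion molecule, IkB-alpha and an inhibitor of apoptosis, had edgeR adjusted p of 3.61e-06, 1.32e-04 and 0.00659. No sample of these 4 genes overlapped between the lines. Without replicate 0 of DAOY, BIRC3 lost its call (log2 fold change 0.39, edgeR adjusted p = 0.146), NFKBIA fell short of the fold threshold (0.91), and TNFAIP3 remained called (2.21). BIRC3 also fell short of that threshold by limma with a pseudocount of 1 (0.99).

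**Figure D2:**
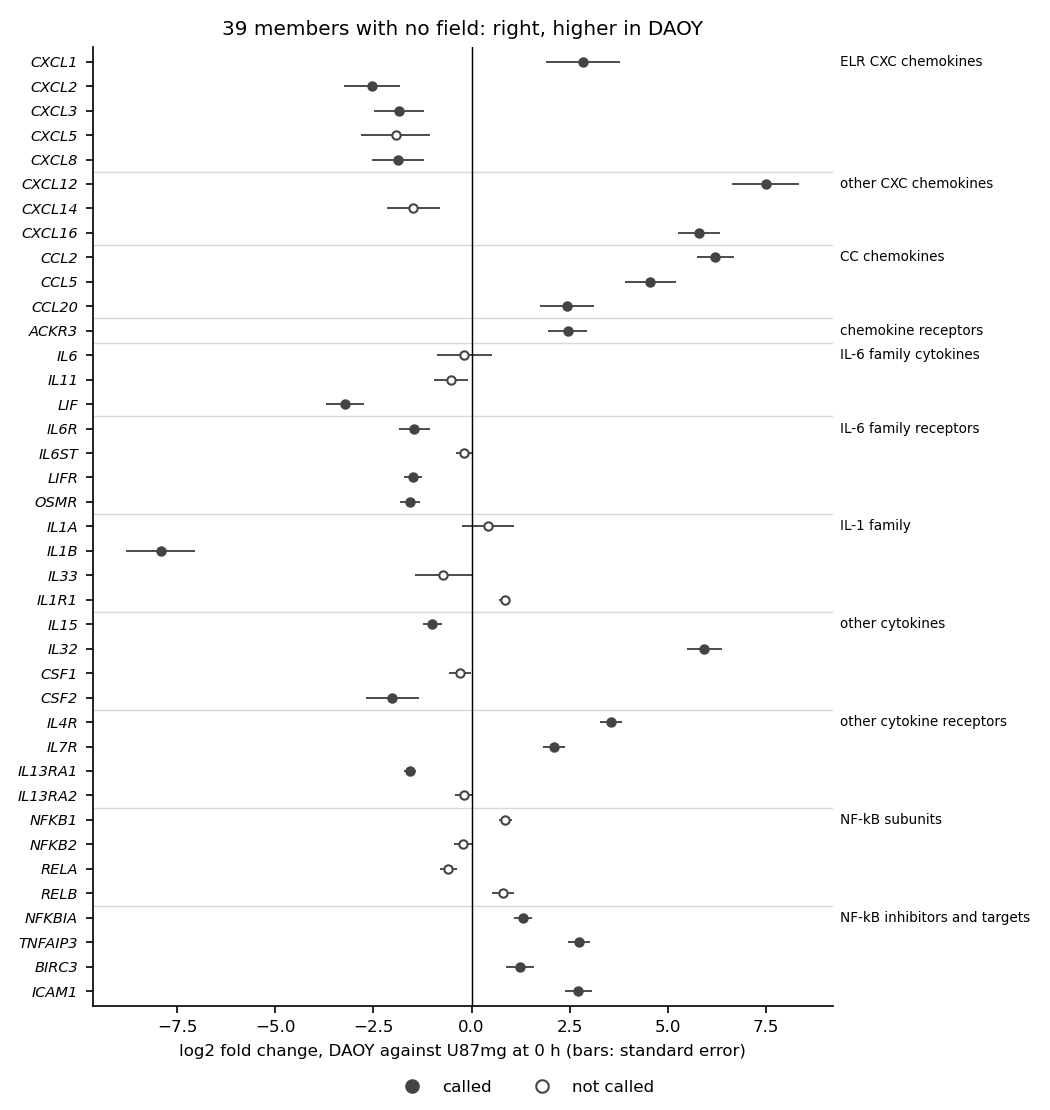
Log2 fold change of DAOY against U87mg at 0 h (3 samples each, edgeR) with its standard error, by role, for the 39 tested genes with more than 3 counts in at least 1 U87mg sample at 0 h. CC chemokines, IL32, IL4R and the NF-kB inhibitors and targets lie to the right (higher in DAOY), and IL1B at -7.92 lies furthest to the left.

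Lists of related genes outside the 44 were split in the same comparison, in which 23.4% of all genes were higher in DAOY and 17.8% lower. Of 33 further NF-kB pathway genes tested, 8 were higher in DAOY (24.2%, near the share of all genes), among them VCAM1 (log2 fold change 11.39 ± 0.53 SE), TNF (2.66 ± 0.50) and SOD2 (2.02 ± 0.34), and 3 were lower (9.09%), TNFRSF1B, IRAK1 and IKBKG. Of 18 interferon response genes tested, 15 were higher in DAOY (83.3%), led by MX1 (log2 fold change 6.72 ± 0.40 SE), IFI27 (6.41 ± 0.49) and OAS1 (5.18 ± 0.36), and 0 were lower at the same thresholds. Of 32 further cytokine and receptor genes tested, 8 were higher (25%) and 13 lower (40.6%), and of 18 genes of the JAK, STAT and SOCS list 3 were higher and 3 lower (16.7% each). Of 35 further chemokines and receptors, only 12 could be tested, of which 9 were higher (75%) and 2 lower (16.7%) in DAOY. In the fits of single lines, 10 of these 35 genes passed the filter on low counts in DAOY and 3 in U87mg. A gene that passes only through DAOY is nearly bound to be higher there, so no conclusion is drawn from these shares.

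After 2 h of field, the test called none of the 44 genes in either line. In U87mg 0 of 34 tested genes were called (0% of all 14079 genes), with 2 at an unadjusted p under 0.05, where 8.81% of all genes were. In DAOY 0 of 42 were called (0% of all 15396 genes), with 0 at an unadjusted p under 0.05, where 2.75% of all genes were. DESeq2 and limma, with both pseudocounts, also called 0 of the 44 genes in each line. The median log2 fold change was -0.02 in U87mg and 0.02 in DAOY, against -0.02 and 0.00 over all genes. Without replicate 0 of DAOY at 0 h, the 16 genes high in that sample had log2 fold changes of 0.35 to 1.98 at 2 h, against -0.77 to 0.32 with it, and 0 of the 42 genes were called either way.

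The tested genes with the smallest p in U87mg at 2 h were RELB, LIFR, CSF1, NFKBIA and IL13RA1. RELB, a subunit of the alternative NF-kB pathway, was at 7.44, 5.38 and 6.04 TPM at 2 h and 6.53, 10.4 and 10.5 at 0 h (log2 fold change -0.64 ± 0.24, edgeR adjusted p = 0.495), where replicate 0 of 2 h lay above replicate 0 of 0 h and below both other samples of 0 h. NFKBIA, coding for the inhibitor IkB-alpha, was at 69.2, 82.8 and 67.7 TPM at 2 h and 89.3, 80.3 and 92.8 at 0 h (log2 fold change -0.30 ± 0.17). The log2 fold changes of LIFR (0.28 ± 0.13), CSF1 (-0.55 ± 0.30) and IL13RA1 (0.20 ± 0.12) had the same edgeR adjusted p of 0.495.

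In DAOY at 2 h the smallest p belonged to NFKB2, ICAM1, IL11, IL13RA1 and ACKR3. Their log2 fold changes lay between -0.20 (IL13RA1) and 0.45 (IL11), with edgeR adjusted p of 0.999 for each. NFKB2 was at 45.2, 28.4 and 25.4 TPM at 2 h and 30.9, 27.8 and 23.7 at 0 h, and the ranges overlapped. On CPM scaled by TMM, 3 of 34 genes in U87mg had all samples of 2 h above those of 0 h (BIRC3, IL13RA1 and LIFR, where 8.78% of all genes did) and 2 had them below (RELB and NFKBIA, where 5.04% did). In DAOY 0 of 42 genes did so in either direction, where 3.18% of all genes were higher and 3.74% lower. Both shares in U87mg were near those of all genes.

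After 8 h of field, CXCL2 fell in U87mg, and in DAOY CCL2 fell and LIFR rose. In U87mg 1 of 34 tested genes was called (2.94%), where 0.639% of all 14079 genes were, 26 of them higher and 64 lower. In DAOY 2 of 42 were called (4.76%), where 3.13% of all 15396 genes were, 183 of them higher and 299 lower. At an unadjusted p under 0.05 there were 8 genes in each line, where 15.9% of all genes in U87mg and 22.7% in DAOY were. The median log2 fold change of the tested genes was -0.17 in U87mg and -0.13 in DAOY, against 0.00 and -0.01 over all genes.

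CXCL2 in U87mg stood at 350, 143 and 247 TPM at 0 h, at 223, 224 and 302 at 2 h and at 73.8, 45 and 91.5 at 8 h. All samples of 8 h lay below all samples of 0 h and 2 h. The log2 fold change at 8 h was -1.74 ± 0.33, or 3.33-fold lower (edgeR adjusted p = 0.0265). The direction held in all 20 alternatives (-2.02 to -1.37), but the call was lost in 10 of them, among them limma (adjusted p of 0.0683 and 0.0716) and a fit of only the 6 samples compared (0.0981). Leaving out any 1 sample of 8 h, replicate 0 or 1 of 2 h, or replicate 2 of 0 h brought the adjusted p of edgeR to between 0.0512 and 0.115.

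The other ELR chemokines of U87mg did not pass the test at 8 h. CXCL3 stood at 124, 66.8 and 148 TPM at 0 h and 52, 22.8 and 51.8 at 8 h, without overlap (log2 fold change -1.31 ± 0.37, edgeR adjusted p = 0.0959), and it was called with the replicate number as a block (edgeR adjusted p = 0.0354). CXCL1 (-0.55 ± 0.49), CXCL8 (-0.38 ± 0.42) and CXCL5 (-0.20 ± 0.64, log2 fold change ± SE) had wider overlap. CXCL8 remained the highest of the 44 genes in U87mg at 8 h, with 2172, 924 and 2281 TPM.

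Several cytokines of U87mg had log2 fold changes beyond 1 in size at 8 h but failed the adjustment. IL6 stood at 589, 241 and 560 TPM at 0 h and 281, 47.8 and 141 at 8 h (log2 fold change -1.43 ± 0.51, edgeR adjusted p = 0.194). LIF stood at 136, 113 and 213 and 112, 24.7 and 37.4 TPM (log2 fold change -1.30 ± 0.45, edgeR adjusted p = 0.176), and without replicate 0 of 8 h it was called (-2.13, edgeR adjusted p = 0.0279). CSF2 stood at 18.8, 14.8 and 49.8 and 13.9, 1.46 and 6.23 TPM (log2 fold change -1.82 ± 0.62, edgeR adjusted p = 0.172). In each of these 3 genes replicate 0 of 8 h overlapped the samples of 0 h or lay closest to them, and replicate 1 was lowest. Without replicate 0 of 8 h the log2 fold changes of IL6 and CSF2 were -2.19 and -2.79 (edgeR adjusted p of 0.0584 and 0.0701), and that of CSF2 was -1.13 without replicate 2 of 0 h.

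IL11 had the opposite sign. It stood at 121, 79 and 122 TPM at 0 h, 157, 84.9 and 120 at 2 h and 437, 117 and 171 at 8 h in U87mg (log2 fold change 1.30 ± 0.42, edgeR adjusted p = 0.15), where replicate 0 of 8 h was far above the rest and replicate 1 within the range of 0 h. Its log2 fold change was 0.53 without replicate 0 of 8 h (edgeR adjusted p = 0.387). Without a filter on low counts, edgeR called CXCL2, CXCL3, IL6, IL11, LIF and CSF2 in U87mg, among 233 of 28397 genes called. The log2 fold changes hardly moved in that fit, while the p-values became far smaller. For IL6 the log2 fold change was -1.45 with an edgeR adjusted p of 1.04e-17, against -1.43 and 0.194 with the filter. No conclusion is therefore drawn from calls made only without a filter, in any comparison. The receptors LIFR (0.32 ± 0.13) and IL6R (0.37 ± 0.17) had log2 fold changes under 1.

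CCL2 in DAOY stood at 3260, 1747 and 2115 TPM at 0 h and 3051, 2254 and 2034 at 2 h. At 8 h it stood at 882, 724 and 717 TPM, and all 3 samples lay below all 6 earlier ones. The log2 fold change at 8 h was -1.48 ± 0.25, or 2.79-fold lower (edgeR adjusted p = 0.0132). The call held in 18 of 20 alternatives, without replicate 0 of 0 h included, and was lost without replicate 1 (edgeR adjusted p = 0.0682) or replicate 2 of 8 h (0.0626). CCL2 led the 44 genes in DAOY at 0 h and at 2 h, and at 8 h its mean of 774 ± 93.1 TPM was next to that of CXCL8 (789 ± 61.8, SD, n = 3).

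CCL7, which lies next to CCL2 on chromosome 17, had a log2 fold change of similar size and a wider error. It stood at 63.7, 20.4 and 5.94 TPM at 0 h, 43.1, 4.84 and 49.3 at 2 h and 7.66, 4.2 and 4.45 at 8 h (log2 fold change -2.18 ± 0.86, edgeR adjusted p = 0.165), and the lowest sample of 0 h lay within the range of 8 h. The log2 fold change was -1.18 without replicate 0 of 0 h (edgeR adjusted p = 0.424). CCL20 (0.06 ± 0.60) and CCL5 (-0.20 ± 0.49) had log2 fold changes near 0, but that of CCL20 was 1.32 without replicate 0 of 0 h (edgeR adjusted p = 0.0913).

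LIFR, the receptor chain for LIF, rose in DAOY. It stood at 6.8, 6.49 and 10.9 TPM at 0 h, 6.24, 11.4 and 9.98 at 2 h and 13.8, 19.2 and 20.6 at 8 h, and all samples of 8 h lay above all earlier ones. The log2 fold change was 1.14 ± 0.26, or 2.21-fold higher (edgeR adjusted p = 0.0328), between 1.00 and 1.33 in all 20 alternatives, with the call lost in 9 of them, at adjusted p between 0.0535 and 0.128. OSMR, its neighbour on chromosome 5, had a log2 fold change of 0.77 ± 0.31 and IL6ST one of 0.51 ± 0.22 (edgeR adjusted p of 0.176 and 0.198). The ligand LIF stood at 20.3, 13.2 and 13.8 TPM at 0 h and 15.1, 8.79 and 11.6 at 8 h and was not called (log2 fold change -0.51 ± 0.32).

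CXCR4 in DAOY came close to the threshold. It stood at 20.4, 15 and 17.4 TPM at 0 h, 24.9, 12.3 and 28.2 at 2 h and 37.1, 31.8 and 137 at 8 h, without overlap between 0 h and 8 h, and replicate 2 of 8 h was far above the other samples. The log2 fold change was 1.99 ± 0.53 (edgeR adjusted p = 0.0548), and it was called by DESeq2 (adjusted p = 0.00143), with at least 10 counts in every sample (edgeR adjusted p = 0.0479), in a fit of all 18 samples (0.0121) and without a filter on low counts. Its log2 fold change was 1.0 without replicate 2 of 8 h (edgeR adjusted p = 0.183). Its ligand CXCL12 stood at 26, 25.3 and 11.4 TPM at 0 h and 28.2, 19.2 and 8.47 at 8 h (log2 fold change -0.15 ± 0.50).

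For the genes that were high in replicate 0 of DAOY at 0 h, the value at 8 h turned on that sample. Of the 16 genes, 3 had log2 fold changes above 0 at 8 h (-2.18 to 0.19 over all 16), against 12 without it (-1.18 to 1.82). CXCL8 stood at 1527, 190 and 309 TPM at 0 h and 773, 738 and 858 at 8 h, where the samples were close together (log2 fold change 0.19 ± 0.68, edgeR adjusted p = 0.911). Without replicate 0 of 0 h, CXCL8 was called higher at 8 h (log2 fold change 1.82, edgeR adjusted p = 0.0338). IL6 stood at 944, 148 and 131 and 415, 241 and 245 TPM, and its log2 fold change turned from -0.41 to 1.23 without that sample (edgeR adjusted p = 0.133). IL1B stood at 21.9, 2.79 and 5.41 TPM at 0 h and 2.01, 0.875 and 3.75 at 8 h (log2 fold change -2.16 ± 0.80, edgeR adjusted p = 0.138), and it was called by DESeq2 (adjusted p = 0.0284) and without a filter on low counts. Its log2 fold change was -0.73 without replicate 0 of 0 h (edgeR adjusted p = 0.499) and -2.76 without replicate 2 of 8 h.

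IL1R1, the IL-1 receptor, stood at 114, 114 and 87.6 TPM at 0 h and 77.8, 66.7 and 62.6 at 8 h in DAOY, without overlap, but its log2 fold change of -0.53 ± 0.16 was small (edgeR adjusted p = 0.0803). The 4 NF-kB subunits had log2 fold changes between -0.05 (NFKB1) and 0.44 (NFKB2) in DAOY at 8 h, and between -0.15 (NFKB2) and 0.04 (RELA) in U87mg. In TPM, RELA in DAOY lay between 18.4 and 39.2 at 0 h and between 47.8 and 51.2 at 8 h. NFKB1 in U87mg lay between 25.5 and 29.3 TPM at 0 h and between 20.6 and 21.5 at 8 h. The other TPM ranges of the subunits overlapped, and this difference between counts and TPM was not tested. The 4 inhibitors and targets lay between -0.60 (TNFAIP3) and 0.11 (ICAM1) in DAOY and between -0.31 (ICAM1) and 0.26 (TNFAIP3) in U87mg, and 0 of these 8 genes were called in either line. The smallest edgeR adjusted p among them was that of TNFAIP3 in DAOY (0.268).

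**Figure D3:**
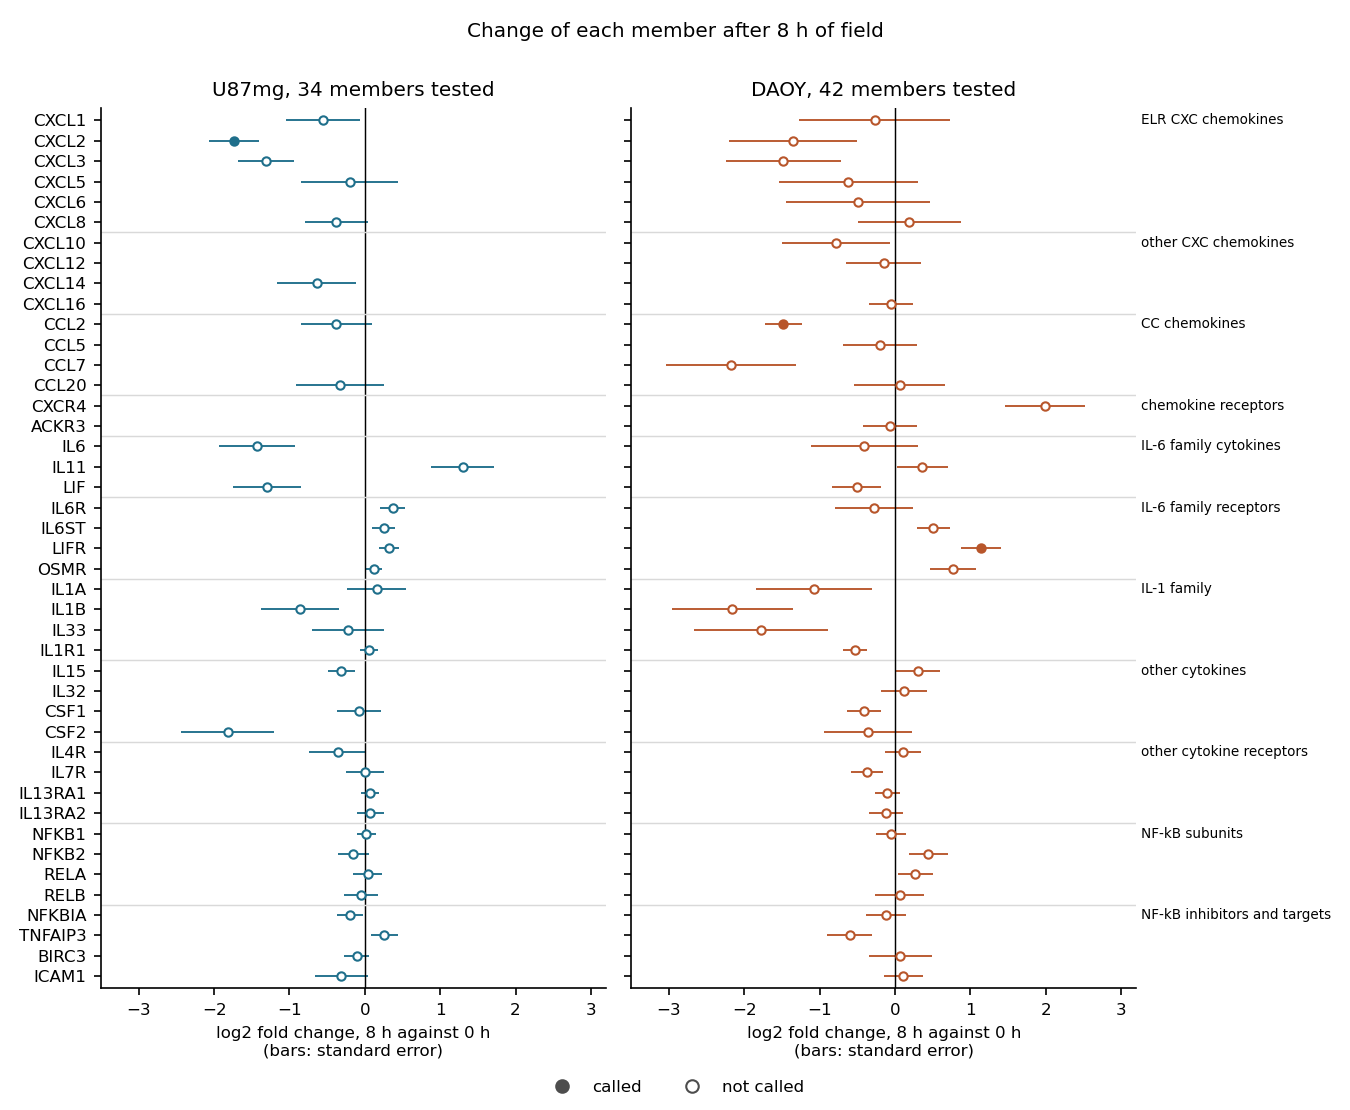
Log2 fold change of 8 h against 0 h with its standard error (edgeR, 3 samples a group) for 34 tested genes in U87mg (left) and 42 in DAOY (right), by role. CXCL2 in U87mg at -1.74 and CCL2 at -1.48 and LIFR at 1.14 in DAOY are the 3 filled points, which passed the test.

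**Figure D4:**
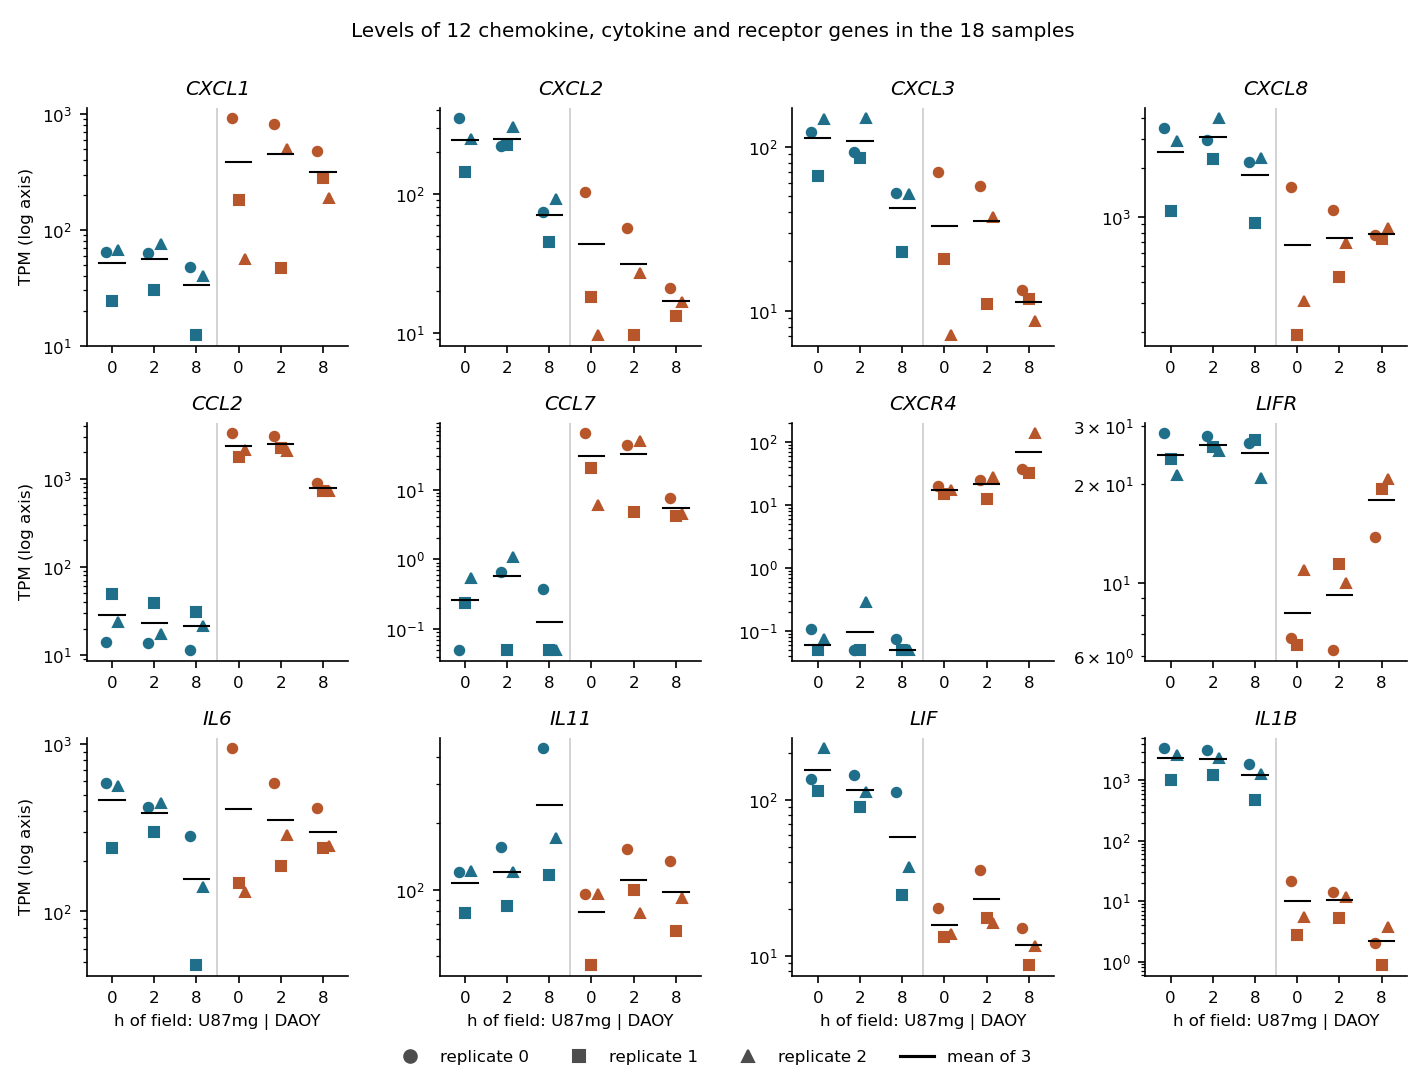
TPM (log axis) of 12 genes in all 18 samples, with U87mg on the left and DAOY on the right of each panel, symbols for replicates, lines for means and values of 0 or below 0.05 drawn at 0.05. CCL2 in DAOY drops at 8 h below all 6 earlier samples, LIFR in DAOY lies above them, and CXCL2 in U87mg lies below all earlier samples.

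On CPM scaled by TMM, the shares of genes without overlap between 8 h and 0 h were near or below those of all genes. In U87mg 2 of 34 genes (5.88%) were higher in all samples (IL6R and LIFR, where 9.62% of all genes were) and 3 (8.82%) were lower (CXCL2, CXCL3 and IL15, where 8.69% were). In DAOY 3 of 42 genes (7.14%) were higher (CXCR4, LIFR and NFKB2, where 12.3% of all genes were) and 3 (7.14%) were lower (CCL2, IL1R1 and LIF, where 13.8% were).

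Few genes of the related lists were called at 8 h, when 0.639% of all genes in U87mg and 3.13% in DAOY were. In U87mg, SOCS1, an inhibitor of cytokine signalling, was the only 1 of 16 tested genes of the JAK, STAT and SOCS list (6.25%, log2 fold change -1.61 ± 0.35 SE, edgeR adjusted p = 0.0424). In DAOY, VCAM1, an NF-kB target and adhesion molecule, was the only 1 of 33 further NF-kB pathway genes (3.03%, log2 fold change -1.35 ± 0.29, edgeR adjusted p = 0.0263), and IFIT2 (-2.17 ± 0.37, 0.0134) and IFIT3 (-1.51 ± 0.33, 0.0283) were called among 18 interferon response genes (11.1%). All 4 were lower at 8 h. No gene of the further chemokine or cytokine lists was called at 2 h or 8 h in either line.

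An interaction term, fitted over both lines, tested whether the change itself differed between them. At 8 h 0 of 43 genes were called (0.0121% of all 16482 genes were), with 3 at an unadjusted p under 0.05, and DESeq2 and limma called 0 as well. At 2 h 0 of 43 were called by edgeR, DESeq2 or limma (0% of all genes were by edgeR), with 1 at an unadjusted p under 0.05. CXCL6 and CXCL10 had 0 counts in all U87mg samples, so no change in U87mg exists for them and the term could not show a difference. CCL7 and CXCR4 had at most 3 counts in any U87mg sample, with SEs of 2.87 and 2.69 at 8 h. In the fit of U87mg alone, only 34 of the 44 genes passed the filter on low counts. CCL2, called in DAOY, had a log2 fold change of -0.38 ± 0.47 in U87mg and an interaction of -1.10 ± 0.56 (edgeR adjusted p = 0.609), which without replicate 1 of U87mg at 0 h were 0.22 and -1.70 (edgeR adjusted p = 0.404 for the interaction). LIFR, called in DAOY, had one of 0.32 ± 0.13 in U87mg and an interaction of 0.83 ± 0.31 (edgeR adjusted p = 0.386). CXCL2, called in U87mg, had one of -1.35 ± 0.85 in DAOY and an interaction of 0.39 ± 0.98 (edgeR adjusted p = 0.978, and 2.26 with 0.33 without replicate 0 of DAOY at 0 h, where its value in DAOY was 0.49), so none of these 3 changes was shown to differ between the lines.

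The other genes with the smallest p of the interaction at 8 h were IL1R1 (-0.56 ± 0.20), TNFAIP3 (-0.86 ± 0.38) and OSMR (0.67 ± 0.36, log2 difference ± SE, DAOY minus U87mg), with edgeR adjusted p of 0.349, 0.508 and 0.642. At 2 h they were RELB (0.97 ± 0.40), NFKB2 (0.69 ± 0.33), IL13RA1 (-0.42 ± 0.21), RELA (0.52 ± 0.31) and IL4R (0.69 ± 0.41), each at an edgeR adjusted p of 0.619. RELB stood at 33.7, 26.3 and 16.9 TPM in DAOY at 2 h and at 11.3, 21.1 and 18.2 at 0 h.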

How the data were processed

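Polyadenylated RNA of 18 samples was sequenced from stranded libraries. The submitters' processing notes name FastQC 2.0.0, kallisto 0.43.0, sleuth 0.28.1, R 3.2.1 and the build GRCh38.p5. The authors deposited 1 table with estimated counts and TPM per transcript of GENCODE 24, and with the p-values, q-values and log2 fold changes of their own comparisons, which were not used. Whether kallisto used strand is not given in the sources used here, so antisense partners cannot be told apart. Counts carry no molecular identifiers, and floors of 3 counts cover counting error only.

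Here both deposited units were summed by gene name. Estimated counts were rounded, filtered with filterByExpr, scaled by TMM and tested with edgeR 4.0.16 (glmQLFit, glmQLFTest, R 4.3.3), each line in a fit of its 9 samples and the lines in a fit of all 18. Adjusted p-values are Benjamini-Hochberg values over all genes tested. The SE is the log2 fold change divided by the square root of F. Calls needed an FDR under 0.05 and a log2 fold change of 1 or more in size. In simulated counts with 200 changed genes, edgeR called 182 of them in U87mg, with 4 unchanged genes, and 145 in DAOY, with 7. These values belong to the fits of single lines and not to the interaction term. Whether changes as small as those reported at 8 h would be called was not tested. Alternatives used DESeq2 1.42.0, limma 3.58.1 on log2(TPM + 1) and log2(TPM + 0.1), other size factors, filters and fits, and each replicate left out. Positions came from GENCODE 29, promoter sequences from RefSeq.

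The 44 genes and the lists of related genes were chosen with earlier results of these data known. Named are all called genes of the 44, the 5 with the smallest p where none was called, and up to 3 called genes per further list and direction, of which some are given as counts. Other genes that are given singly at 8 h, and IL6 and IL11 between the lines, were chosen after their values were seen, as was the alternative that leaves out U87mg replicate 1 or DAOY replicate 0 at all 3 times. Related lists were described by counts, with no test of the list.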

Additional observations from a re-analysis of the deposited data

How the results depend on the processing

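With 3 samples a group, the few calls at 8 h were lost when some single samples were left out, while the log2 fold changes kept their direction. CCL2 in DAOY was at -1.45 and -1.43 where its call was lost, against -1.48. CXCL2 in U87mg stayed at -1.74 where its call was lost without replicate 0 or 1 of 2 h. In U87mg at 8 h, where 1 gene was called, 6 were called without a filter on low counts, 2 (CXCL2 and CXCL3) with the replicate number as a block, and 0 by limma with either pseudocount, in a fit of the 6 samples compared and in a fit of all 18. Leaving out each replicate gave 0 to 1, with LIF in place of CXCL2 without replicate 0 of 8 h, and leaving out U87mg replicate 1 at all 3 times, chosen after seeing the data, gave 1. In DAOY at 8 h, where 2 were called, 5 were called without a filter, 4 by DESeq2 and 1 by limma with either pseudocount and in a fit of the 6 samples. Leaving out each replicate gave 0 to 2, with 0 without replicate 1 or 2 of 8 h. Of all genes in DAOY at 8 h, 31 and 75 were called without those samples, against 482. Between the lines, where 29 genes were called, the count was 15 with at least 10 counts in every sample, where fewer genes are tested. For the difference of the 8 h changes, where 0 were called, it was 1 (CCL2) without a filter. The genes of U87mg without overlap between 2 h and 0 h numbered 3 without a filter and 3 on TPM values, against 5. The cause of these differences was not tested.

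Among the named genes, signs turned in these uncalled values. The ranges when each replicate was left out were -0.84 to 1.23 for IL6 in DAOY at 8 h, -1.86 to 0.22 for IL6 between the lines, -0.27 to 1.82 for CXCL8 in DAOY at 8 h, -0.64 to 0.24 for CXCL5 in U87mg at 8 h and -0.11 to 2.26 for the difference of the 8 h changes of CXCL2. IL6 in DAOY at 8 h also went from -0.41 to 0.14 by limma with either pseudocount, to 0.19 with the replicate number as a block and to 0.95 without DAOY replicate 0 at all 3 times.

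The labels do not say that a replicate number marks a shared batch, and the numbers were not taken to pair the samples, since not every pair of a comparison with 0 h correlated. Correlations of the deviations of same-numbered samples from their group means lay between -0.17 and 0.27 in U87mg and between -0.20 and 0.44 in DAOY. Between 2 h and 8 h they were 0.27, 0.15 and 0.19 in U87mg, where each sample correlated best with its own number, and 0.44, 0.07 and 0.10 in DAOY. With the block the counts of called genes at 2 h stayed at 0 in both lines, and DAOY at 8 h stayed at 2. Depth limits CXCL6, CXCL10, CCL7 and CXCR4 in U87mg, which had at most 3 counts in any sample at 0 h.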
